A study of Mus musculus with 6 samples.

Results

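Small GTPases of the Rab family, and the proteins that switch small GTPases on and off, were read out in hippocampal RNA from mice. The genes were taken by name: symbols that begin with Arhgap, Arhgef, Dock, Rapgef, Rasgrp, Rasgrf, Rasa, Tbc1d, Dennd or Rab and go on with a digit. By this rule 45 of the 3733 genes in the deposited table belong to the set. They are 10 Rab GTPases, 1 Rab partner (Rab11fip2), 7 Rab activators with a DENN domain, 4 Rab inactivators with a TBC domain, 2 activators of the Dbl type (Arhgef), 5 activators of the DOCK type, 10 inactivators of the Arhgap type, 2 Ras activators, 3 Ras inactivators and 1 Rap activator. All 45 gene identifiers carry the same symbol in RefSeq. No gene of the Rasgrf type is listed.

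Total RNA of whole hippocampus was sequenced in 6 libraries, 2 in each of 3 groups. The PIA+IL-27 group received immune activation after birth together with recombinant IL-27, a cytokine of myeloid cells. The PIA group received the immune activation alone, which the design text names as LPS, the bacterial lipopolysaccharide. The Control group is labelled only as control, and the labels give no strain, sex, age, dose or time and name no animal or litter, so p-values measure only the spread between these samples, which may be technical.

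Small GTPases are molecular switches that are active when bound to GTP and inactive when bound to GDP. Guanine nucleotide exchange factors (GEFs) load GTP and so switch them on, and GTPase-activating proteins (GAPs) speed GTP hydrolysis and so switch them off. Rab proteins direct membrane traffic, RhoA, Rac and Cdc42 shape the actin cytoskeleton of axons, dendrites and spines, and Ras and Rap proteins pass on signals from receptors and synapses.

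The transcripts of these genes differ widely in base composition, which is shown here because the fold changes are set against it at the end. GC content, the share of G and C in the longest coding transcript, ran from 33.9% in Arhgap5 to 61.2% in Arhgef1. Coding bases 301 to 450, counted from the start codon in GENCODE transcripts, are given for genes near the low end (Arhgap5, Rab30) and at the high end (Arhgef16, Arhgef1), with every G and C in capitals.
Arhgap5 (chromosome 12, transcript 33.9% GC): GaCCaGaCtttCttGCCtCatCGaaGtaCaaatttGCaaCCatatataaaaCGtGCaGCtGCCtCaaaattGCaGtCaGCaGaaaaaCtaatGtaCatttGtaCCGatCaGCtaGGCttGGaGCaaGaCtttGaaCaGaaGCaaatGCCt
Rab30 (chromosome 7, transcript 38.1% GC): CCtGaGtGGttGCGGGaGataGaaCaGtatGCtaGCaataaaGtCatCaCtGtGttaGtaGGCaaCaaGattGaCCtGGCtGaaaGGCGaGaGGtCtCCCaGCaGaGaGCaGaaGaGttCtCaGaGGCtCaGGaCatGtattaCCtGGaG
Arhgef16 (chromosome 4, transcript 59.3% GC): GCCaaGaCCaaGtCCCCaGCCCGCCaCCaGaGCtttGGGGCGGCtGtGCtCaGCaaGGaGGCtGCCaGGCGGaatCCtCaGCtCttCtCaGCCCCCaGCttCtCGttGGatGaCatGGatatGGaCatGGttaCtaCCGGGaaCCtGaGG
Arhgef1 (chromosome 7, transcript 61.2% GC): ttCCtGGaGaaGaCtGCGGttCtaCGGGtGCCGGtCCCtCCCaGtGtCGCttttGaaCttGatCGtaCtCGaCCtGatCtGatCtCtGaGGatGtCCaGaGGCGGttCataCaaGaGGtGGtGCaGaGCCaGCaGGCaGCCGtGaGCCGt
The windows held 41.3% GC in Arhgap5, 49.3% in Rab30, 60.7% in Arhgef16 and 57.3% in Arhgef1.

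Promoter windows were searched for the palindrome bound by STAT3, because the IL-27 receptor signals through STAT3. The RefSeq windows (250 bases before to 50 after a start, build GRCm38.p6) matched 35 of the 45 genes with 48 windows. The letters TTCNNNGAA, on either strand, stood in 6 of the 48 windows, against 8.30% of 32851 windows of all genes. The genes were Arhgap45, Arhgap5, Dennd1b, Dennd4a, Dock4 and Rasgrp1. Arhgap45 and Dennd1b also had windows at other starts, which lacked the palindrome. The cyclic AMP response element TGACGTCA stood in 0 of 48 and in 1.79% of all. A match describes these letters only. One window each of a gene that was high in PIA+IL-27, a gene known from neurons and a gene known from blood cells is given, with the palindrome in capitals.
Dennd1b, chr1:138963459-138963758, plus strand: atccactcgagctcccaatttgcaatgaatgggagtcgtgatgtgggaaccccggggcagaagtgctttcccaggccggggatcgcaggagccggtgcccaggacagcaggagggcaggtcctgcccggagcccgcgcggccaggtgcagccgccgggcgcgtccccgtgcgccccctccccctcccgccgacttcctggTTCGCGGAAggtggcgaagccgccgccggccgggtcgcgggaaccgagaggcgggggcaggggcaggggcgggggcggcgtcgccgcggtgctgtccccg
Rasgrp1, chr2:117342828-117343127, minus strand: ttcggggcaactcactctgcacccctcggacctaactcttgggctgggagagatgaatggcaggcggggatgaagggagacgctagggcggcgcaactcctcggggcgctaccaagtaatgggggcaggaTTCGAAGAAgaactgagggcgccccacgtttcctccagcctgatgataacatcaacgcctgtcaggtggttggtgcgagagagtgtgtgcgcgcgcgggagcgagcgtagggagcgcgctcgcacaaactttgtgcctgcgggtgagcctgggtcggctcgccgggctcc
Arhgap45, chr10:80019425-80019724, plus strand: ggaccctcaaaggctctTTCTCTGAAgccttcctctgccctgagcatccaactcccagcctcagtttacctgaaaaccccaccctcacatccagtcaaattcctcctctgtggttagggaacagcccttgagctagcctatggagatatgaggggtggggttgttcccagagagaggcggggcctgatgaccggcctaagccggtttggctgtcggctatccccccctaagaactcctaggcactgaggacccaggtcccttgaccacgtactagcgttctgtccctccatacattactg

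The deposited table is a selection of genes, and several features of its libraries touch every value below. Reads in the listed genes numbered 641672 to 1593441 per library and carried 2.14 to 5.61% of the TPM of a library. Each of the 45 genes is listed because the authors' deposited table puts its log2 fold change at 1 or more in size, with a Q value no higher than 0.05, in 1 or more comparisons. Replicates differed by over 2-fold at 68.8% of all listed genes in Control. Choroid plexus markers, 15 of 15 listed, had sums of 1389 and 1520 normalized read counts in PIA+IL-27, 12867 and 872 in PIA, and 676 and 66150 in Control. Of Y-linked genes, 4 were listed, with sums of 1476 and 6.80 in PIA+IL-27, 541 and 594 in PIA, and 2.94 and 9.52 in Control, so both PIA libraries and PIA+IL-27 1 lay above PIA+IL-27 2 and both Control libraries. Their part in the results was not tested. Hippocampal pyramidal cell markers were listed for 3 of 9 genes and dentate granule cell markers for 3 of 6, leaving out Dock10, which is both a marker and a member. None of these 6 was at 0 in any library. In whole tissue, fewer cells of a type and less RNA per cell cannot be told apart.

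Read counts below are the authors' normalized read counts, in which a library's reads are divided by 1 factor. Differences are log2 fold changes from edgeR's quasi-likelihood test, with p-values adjusted by Benjamini-Hochberg over all 3216 genes tested. The test gives no standard error, so it was derived as the size of the fold over the square root of the test's F statistic. Of the 45 genes, 42 passed the filter on low counts, and Dennd2d, Rab17 and Rab44 did not. Levels ran from a mean of 0.145 TPM (Rab44) to 29.5 TPM (Arhgef1), with a median of 3.60 TPM, and 8 genes averaged under 1 TPM.

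The set as a whole was read most in both PIA+IL-27 libraries and in Control 2. Summed over the 45 genes, normalized read counts were 17733 and 15563 in PIA+IL-27, 9088 and 10376 in PIA, and 7129 and 16827 in Control. Both PIA+IL-27 libraries lay above both PIA libraries, and the Control libraries lay on either side of the PIA pair. In 28 of the 45 genes (62.2%), both PIA+IL-27 libraries and Control 2 lay above the other 3 libraries, as they did in 52.4% of all listed genes. This split was chosen after the values were seen. Arhgap9 and Rab32 had the opposite arrangement (4.44%, against 9.54% of all listed genes). Control replicates differed by over 2-fold in 30 of the 45 genes (66.7%, against 68.8% of all listed genes). Of these 30, 28 were higher in Control 2, as were 2131 of the 2567 listed genes that differed by over 2-fold. In PIA+IL-27 the replicates of 8 genes differed by over 2-fold (17.8%, against 31.0% of all listed genes), and in PIA those of 10 (22.2%, against 31.4%). Neuron markers, listed for 2 of 6 genes (Snap25 and Map2, neither at 0 in any library), had sums of 17436 and 18791 normalized read counts in PIA+IL-27, 9035 and 4988 in PIA, and 6894 and 16826 in Control. The sum of these 2 genes split the libraries in the same way. The other neuron markers on the list are not in the table, so their levels are not seen. The part of neuron content in the result was not tested.

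**Figure D1:**
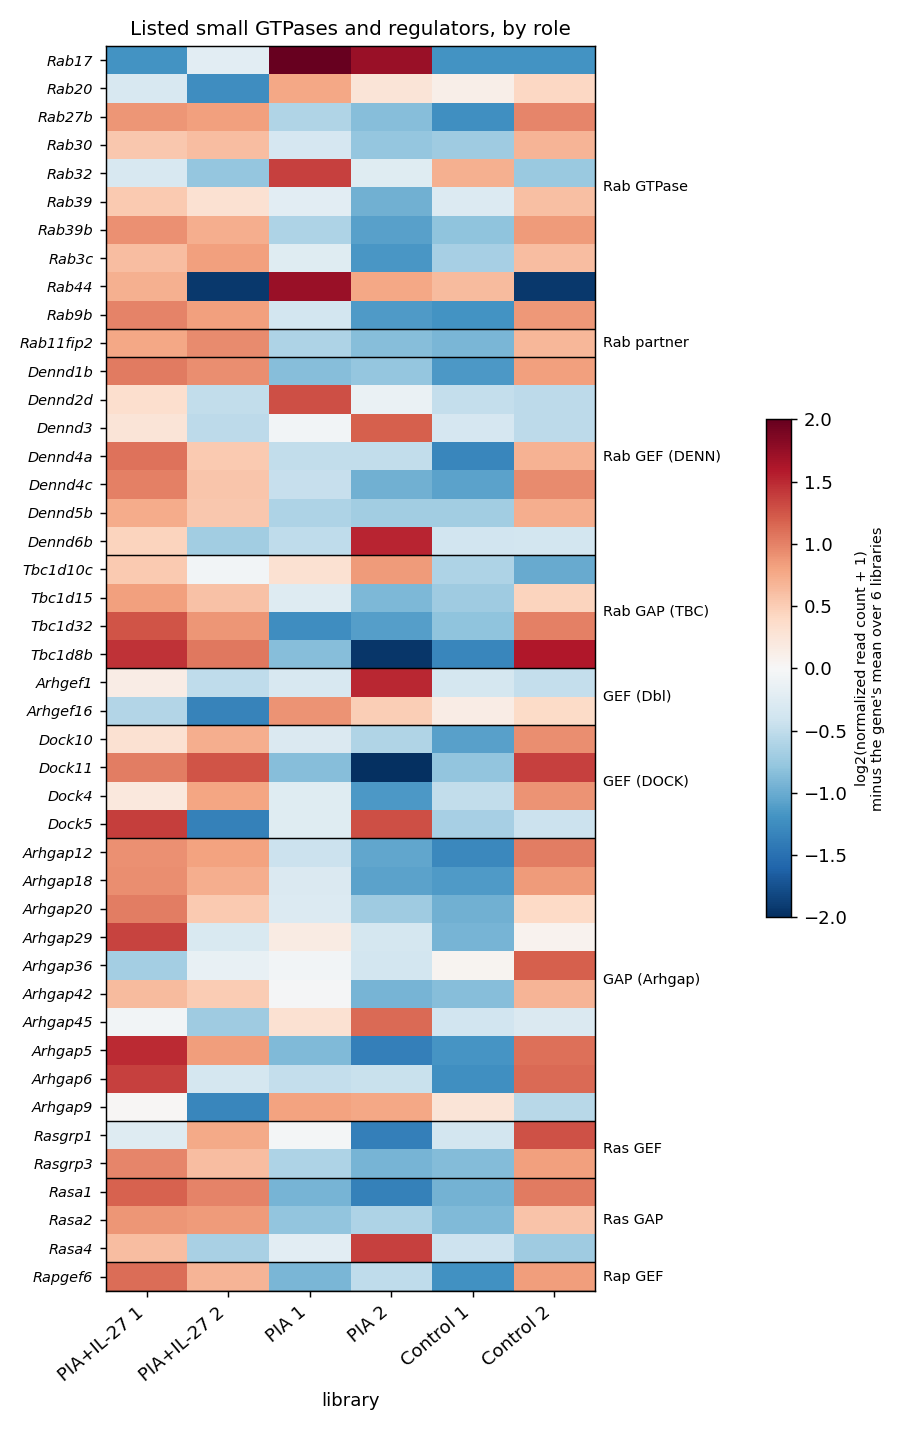
Each row is 1 of 44 of the 45 genes, ordered by role, and each column is 1 library; color gives log2(normalized read count + 1) minus the gene's mean over the 6 libraries, cut at -2 and 2. Most rows are red in both PIA+IL-27 libraries and Control 2 and blue in both PIA libraries and Control 1, and a smaller set that includes Arhgef1, Dennd6b and Rasa4 is darkest red in PIA 2.

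With all 6 libraries in the fit, no gene of the set passed the adjusted threshold of edgeR in any comparison. In PIA+IL-27 against PIA the count was 0 of 42 (0.435% of all genes tested were called), and 5 genes had an unadjusted p under 0.05, which is 11.9% against 18.7% of all genes tested. With only the 4 libraries of this comparison in the fit, edgeR called 10 of the 42 (23.8%), all higher, with adjusted p-values of 0.0493 to 0.0497, against 13.8% of 3006 genes called as higher. They were Arhgap5, Dennd1b, Dock11, Rab11fip2, Rab39b, Rab9b, Rapgef6, Rasa1, Rasa2 and Tbc1d32. DESeq2 called 3 of the 42 (7.14%), all lower, against 8.40% of all genes tested, and limma on log2(TPM + 1) called 0 (0.311% of all). In PIA against Control the count was 0 of 42 (0.218% of all), with 1 gene at an unadjusted p under 0.05 (6.28% of all). For PIA+IL-27 against Control it was 0 of 42 (0.311% of all), with 0 at an unadjusted p under 0.05 (2.86% of all). In PIA against Control, 0 genes of the set were called by DESeq2 (0.0622% of all), by limma (0.187%) and by edgeR on only the libraries of the comparison (0.301%). In PIA+IL-27 against Control, 0 were called by DESeq2, which gave an adjusted p to 32 of the 42 (0.210% of all with one), by limma (0.0622%) and by edgeR on only the libraries of the comparison (0.0329%). The smallest adjusted p in the fit on all libraries was 0.257 in PIA+IL-27 against PIA, 0.617 in PIA against Control and 0.835 in PIA+IL-27 against Control.

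The median fold changes of the set lay close to those of all genes tested. Above 0 were 71.4% of the set in PIA+IL-27 against PIA, 28.6% in PIA against Control and 83.3% in PIA+IL-27 against Control. Over all genes tested these shares were 74.8%, 27.8% and 73.3%. In PIA+IL-27 against PIA, 30 of the 42 were above 0 and 12 below, with a median of 1.26, against a median of 1.17 over all genes tested. With TMM scaling the split was 22 above and 20 below, and the medians were 0.04 for the set and -0.01 for all genes. In PIA against Control, 12 were above 0 and 30 below, with a median of -0.78 against -0.68 over all genes. With TMM scaling these were 17 and 25, and the medians were -0.05 and -0.02. Between PIA+IL-27 and Control, 35 were above 0 and 7 below, with a median of 0.56 against 0.55 over all genes, and with TMM scaling 23 and 19, with medians of 0.09 and 0. The scaling therefore sets where 0 lies, and folds below are on the scale of the authors' factors unless another setting is named. Removing GC content and length trends moves 0 as well. The median over all genes was then 0.09 in PIA+IL-27 against PIA, 0 in PIA against Control and 0.06 in PIA+IL-27 against Control. Folds with and without these trends are thus not set against the same 0, and a sign may differ for that reason. Control 2 weighed on both comparisons with Control: without it, the median of the set was 0.44 in PIA against Control and 1.43 in PIA+IL-27 against Control. Without Control 1 the median in PIA+IL-27 against Control was 0.06. The PIA libraries enter 2 comparisons and so do the other groups, so the 3 sets of folds are not independent.

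In PIA+IL-27 against PIA, the groups did not overlap for 28 genes that were higher (57.1% of all listed genes were) and 7 that were lower (16.5% of all). In PIA against Control, 11 genes were higher without overlap (17.2% of all) and 3 lower (16.5% of all). Between PIA+IL-27 and Control, 6 were higher (23.0% of all) and 3 lower (7.50% of all). The shares of the set were 62.2% and 15.6%, 24.4% and 6.67%, and 13.3% and 6.67%. The authors' deposited table lists 28 of the genes as higher (61.4% of all genes are) and 7 as lower (18.2%) in PIA+IL-27 against PIA. It lists 10 as higher (18.0%) and 14 as lower (34.4%) in PIA against Control. For PIA+IL-27 against Control it lists 3 as higher (13.3%) and 3 as lower (8.57%). These lists decided which genes are in the table at all.

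**Figure D2:**
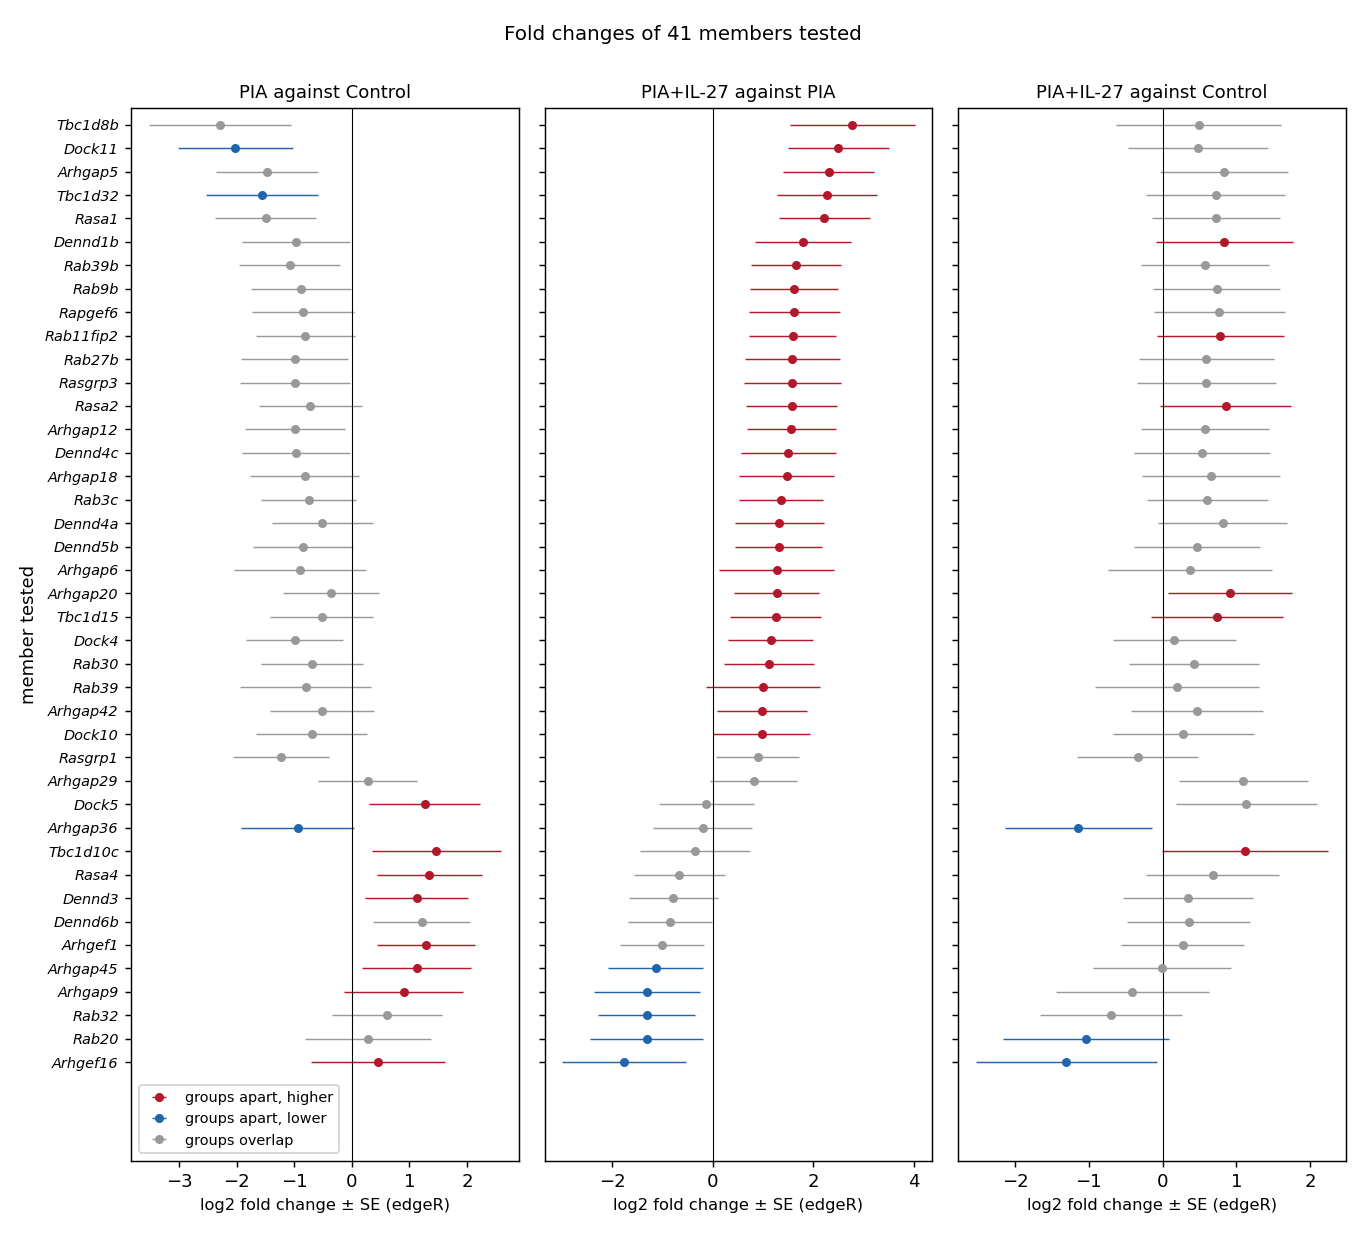
Each row is 1 of 41 of the 42 genes tested, ordered by the fold change of PIA+IL-27 against PIA; points are log2 fold changes from edgeR and lines 1 standard error, in 3 panels with 1 comparison each. Red and blue points mark genes whose groups do not overlap, and the middle panel runs from -1.77 to 2.78.

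Among the Rab GTPases, which mark and move membrane compartments, 6 of 10 were higher in PIA+IL-27 than in PIA without overlap (Rab27b, Rab30, Rab39, Rab39b, Rab3c and Rab9b), against 57.1% of all listed genes, and the other 4 were lower without overlap (Rab17, Rab20, Rab32 and Rab44), against 16.5%. None passed the test on all libraries. The median fold of the 8 Rabs tested was 1.24 in PIA+IL-27 against PIA, 0.08 with TMM scaling and -0.21 with GC content and length trends removed. Rab3c, a Rab of synaptic vesicle release, had 1541 and 1775 normalized read counts in PIA+IL-27, 847 and 448 in PIA, and 635 and 1542 in Control. Rab9b, a relative of the Rab that returns receptors from late endosomes to the Golgi, had 595 and 529 in PIA+IL-27, 230 and 135 in PIA, and 129 and 547 in Control. For both genes the PIA+IL-27 libraries lay above the PIA libraries, and Control 2 lay far above Control 1. The fold of Rab3c in PIA+IL-27 against PIA was 1.36 ± 0.836 (log2, SE) with an adjusted p of 0.290, and that of Rab9b was 1.62 ± 0.882 with an adjusted p of 0.265 (edgeR). With GC content and length trends removed, the fold of Rab3c was -0.12, where the median over all genes was 0.09 in place of 1.17.

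Rab32, which acts at lysosome-related organelles and mitochondria, had 55.3 and 39.8 normalized read counts in PIA+IL-27, 179 and 57.8 in PIA, and 114 and 40.9 in Control. PIA 1 and Control 1 stood above the other 4 libraries. Rab20, a Rab of phagosomes and endosomes, had 15.6 and 7.77 normalized read counts in PIA+IL-27, 34.6 and 24.0 in PIA, and 21.5 and 26.7 in Control. Both PIA+IL-27 libraries were lowest, below PIA and below Control. The folds were -1.31 ± 0.968 for Rab32 and -1.32 ± 1.13 for Rab20 in PIA+IL-27 against PIA, with adjusted p-values of 0.326 and 0.348 (edgeR), and -1.04 ± 1.12 for Rab20 in PIA+IL-27 against Control, with an adjusted p of 0.835. DESeq2 gave Rab20 an adjusted p of 0.0305 in PIA+IL-27 against PIA, with its own scaling over the listed genes. Of the exonic bases of Rab20, 25.6% overlap a gene on the opposite strand, and reads of the 2 genes cannot be told apart where the counting does not use strand, which is not given in the sources used here.

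Rab17 and Rab44 were near the limit of detection. Rab17, known from polarized traffic in epithelia, had 0 and 0.971 normalized read counts in PIA+IL-27, 8.65 and 6.55 in PIA, and 0 and 0 in Control. Reads appeared in both PIA libraries, in 1 PIA+IL-27 library as a single read, and in neither Control library. Set against a floor of 3 counts over the Control group, the observed PIA sum of Rab17 was 5.24-fold higher. The floor covers counting error in Control only. Counting error in PIA and the spread between samples are left out, so this ratio is no lower bound. Rab44, a large Rab of blood cells, had 5.21 and 0 normalized read counts in PIA+IL-27, 11.5 and 5.46 in PIA, and 4.90 and 0 in Control, and 1 library each of PIA+IL-27 and Control was at 0. The remaining Rabs (Rab27b, Rab30, Rab39 and Rab39b) all belonged to the 28 genes above, with folds of 0.99 to 1.66 in PIA+IL-27 against PIA. Of the exonic bases of Rab39b, 18.6% overlap a gene on the opposite strand.

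The Rab partner Rab11fip2, which ties Rab11 recycling endosomes to myosin V, had 751 and 841 normalized read counts in PIA+IL-27, 286 and 242 in PIA, and 232 and 693 in Control. Both PIA+IL-27 libraries exceeded every PIA and Control library. Its folds were 1.59 ± 0.875 in PIA+IL-27 against PIA and 0.78 ± 0.858 in PIA+IL-27 against Control, with edgeR adjusted p-values of 0.269 and 0.835.

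The Rab activators with a DENN domain showed different library patterns. Dennd1b, an activator of Rab35, had 226 and 210 normalized read counts in PIA+IL-27, 60.5 and 64.4 in PIA, and 49.0 and 195 in Control. Its PIA+IL-27 libraries lay above all others, with a fold of 1.80 ± 0.956 against PIA (edgeR adjusted p of 0.265) and 0.84 ± 0.930 against Control (adjusted p of 0.835). Dennd4a, Dennd4c and Dennd5b were also among the 28 genes, each with a fold over 1 against PIA. Over the 6 tested genes the median fold in PIA+IL-27 against PIA was 1.32, 0.09 with TMM scaling and -0.11 with GC content and length trends removed.

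Dennd6b and Dennd3 had a different order. Dennd6b, of which Dennd6a is the close relative, had 949 and 430 normalized read counts in PIA+IL-27, 490 and 2011 in PIA, and 534 and 544 in Control. Dennd3, an activator of Rab12, had 278 and 162 normalized read counts in PIA+IL-27, 225 and 535 in PIA, and 186 and 162 in Control. In both genes PIA 2 was highest and PIA+IL-27 1 second, and PIA 1 and PIA+IL-27 2 lay near the Control libraries. The folds in PIA against Control were 1.21 ± 0.845 for Dennd6b and 1.12 ± 0.888 for Dennd3, both with an edgeR adjusted p of 0.617. Without PIA 2 the fold of Dennd6b was -0.14 in PIA against Control and 0.49 in PIA+IL-27 against PIA, where it was -0.86 with all libraries. The groups of Dennd6b overlapped in each comparison. Dennd2d, too low for the test, had 9.38 and 4.85 normalized read counts in PIA+IL-27, 19.2 and 6.55 in PIA, and 4.90 and 4.76 in Control.

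The arrangement of Dennd6b recurred in other families. PIA+IL-27 1 and PIA 2 lay above the other 4 libraries in Arhgef1, Dennd3, Dennd6b, Dock5, Rasa4 and Tbc1d10c, which is 6 of 45 genes (13.3%), against 6.86% of all listed genes, and below them in Arhgap36. This pair was also chosen after the values were seen. Neocortical neuron markers, listed for 7 of 13 genes and none at 0, had sums of 9560 and 2787 normalized read counts in PIA+IL-27, 6359 in PIA 2 and 3429 in PIA 1, and 3443 and 3114 in Control. Dentate granule cell markers other than Dock10 summed to 898 and 1835 in PIA+IL-27, 900 and 271 in PIA, and 762 and 1842 in Control. Hippocampal pyramidal cell markers summed to 450 and 2491 in PIA+IL-27, 1880 and 563 in PIA, and 1562 and 3284 in Control. The same pair of libraries was highest in the neocortical sum and lowest in the pyramidal sum. The part of tissue content in these 6 genes was not tested.

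Among the Rab inactivators with a TBC domain, 3 of 4 were higher in PIA+IL-27 than in PIA without overlap, against 57.1% of all listed genes. Tbc1d32, a protein of cilia that acts in hedgehog signaling, had 182 and 141 normalized read counts in PIA+IL-27, 31.7 and 34.9 in PIA, and 43.1 and 153 in Control. Both PIA libraries were the lowest. The fold was 2.27 ± 0.993 in PIA+IL-27 against PIA, at an unadjusted p of 0.0219 and an edgeR adjusted p of 0.257, and -1.56 ± 0.974 in PIA against Control, at an adjusted p of 0.617. Tbc1d8b, whose human form is a gene of kidney podocytes, had 32.3 and 24.3 normalized read counts in PIA+IL-27, 5.77 and 2.18 in PIA, and 3.92 and 36.2 in Control. Its PIA libraries were at or under 6 normalized read counts, as was Control 1. The fold was 2.78 ± 1.24 in PIA+IL-27 against PIA, the highest of the 42 genes, at an unadjusted p of 0.0253 and the same adjusted p of 0.257.

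Tbc1d15, an inactivator of Rab7, had 341 and 290 normalized read counts in PIA+IL-27, 161 and 103 in PIA, and 117 and 263 in Control. The PIA+IL-27 libraries exceeded all others, with a fold of 0.73 ± 0.895 against Control (edgeR adjusted p of 0.835), which was -0.05 with GC content and length trends removed. Tbc1d10c, known as carabin in T cells, had 29.2 and 19.4 normalized read counts in PIA+IL-27, 25.0 and 37.1 in PIA, and 12.7 and 9.52 in Control. Both PIA and both PIA+IL-27 libraries lay above both Control libraries. Its folds were 1.47 ± 1.13 in PIA against Control and 1.12 ± 1.12 in PIA+IL-27 against Control, with adjusted p-values of 0.617 and 0.835. Of its exonic bases, 35.5% overlap another gene on the same strand.

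The activators of the Dbl type had the 2 highest GC contents of the 45 genes. Arhgef1, an activator of RhoA that is rich in leukocytes, had 855 and 539 normalized read counts in PIA+IL-27, 619 and 2198 in PIA, and 601 and 552 in Control. PIA 2 alone stood far above the others. The fold in PIA against Control was 1.29 ± 0.843, with an edgeR adjusted p of 0.617, and that in PIA+IL-27 against PIA was -1.01. Without PIA 2 the fold was 0.10 in PIA against Control and 0.17 in PIA+IL-27 against PIA, and with GC content and length trends removed it was 0.35 in PIA+IL-27 against PIA. Arhgef16, an activator of RhoG, had 7.30 and 3.88 normalized read counts in PIA+IL-27, 22.1 and 16.4 in PIA, and 12.7 and 15.2 in Control. Both PIA+IL-27 libraries were lowest, and PIA 1 was highest. Its folds were -1.76 ± 1.23 in PIA+IL-27 against PIA, with an edgeR adjusted p of 0.318, and -1.31 ± 1.23 in PIA+IL-27 against Control, with an adjusted p of 0.835. DESeq2 gave an adjusted p of 0.0310 for the first.

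Of the activators of the DOCK type, Dock4, which acts on Rac and Rap in dendritic spines, had a mean level of 10.3 TPM. It had 782 and 1168 normalized read counts in PIA+IL-27, 571 and 307 in PIA, and 481 and 1266 in Control. The PIA+IL-27 libraries lay above the PIA libraries and Control 2 lay above Control 1. The fold in PIA+IL-27 against PIA was 1.15 ± 0.848.

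Dock11, an activator of Cdc42, showed the lowest unadjusted p of the set in PIA against Control. It had 123 and 145 normalized read counts in PIA+IL-27, 32.7 and 14.2 in PIA, and 34.3 and 157 in Control. Both PIA libraries lay below every other library. The fold was -2.02 ± 0.996 in PIA against Control, at an unadjusted p of 0.0424 and an edgeR adjusted p of 0.617, and it was -0.54 without Control 2. Set against PIA, PIA+IL-27 gave 2.50 ± 1.01, at an unadjusted p of 0.0132 and an adjusted p of 0.257. Dock5, an activator of Rac, had 193 and 28.2 normalized read counts in PIA+IL-27, 61.5 and 180 in PIA, and 46.0 and 54.3 in Control, and its fold in PIA against Control was 1.26 ± 0.962 (adjusted p of 0.617). Its PIA+IL-27 libraries lay 1 above and 1 below all other libraries.

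Among the inactivators of the Arhgap type, Arhgap5, which acts on RhoA, had 631 and 400 normalized read counts in PIA+IL-27, 121 and 86.2 in PIA, and 97.9 and 481 in Control. The PIA+IL-27 libraries and Control 2 were at 3 or more times the other libraries. Its fold was 2.31 ± 0.909 in PIA+IL-27 against PIA, at an unadjusted p of 0.0110 and an edgeR adjusted p of 0.257. Arhgap20, which acts downstream of Rap1 in neurite outgrowth, had 1489 and 1054 normalized read counts in PIA+IL-27, 604 and 448 in PIA, and 378 and 971 in Control. Its PIA+IL-27 libraries lay above all others, and its fold was 0.91 ± 0.840 in PIA+IL-27 against Control, with an adjusted p of 0.835. Arhgap29, a RhoA inactivator of vessels, had 778 and 248 normalized read counts in PIA+IL-27, 342 and 238 in PIA, and 160 and 320 in Control, and PIA+IL-27 1 alone stood out.

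Arhgap36, an atypical member that acts in hedgehog signaling, had 31.3 and 45.6 normalized read counts in PIA+IL-27, 49.0 and 39.3 in PIA, and 52.9 and 117 in Control. Its Control libraries were highest and PIA+IL-27 1 lowest. The folds were -0.94 ± 0.988 in PIA against Control and -1.14 ± 0.993 in PIA+IL-27 against Control, with edgeR adjusted p-values of 0.624 and 0.835. Arhgap12, Arhgap18, Arhgap42 and Arhgap6 were among the 28 genes, with folds of 0.99 to 1.56 in PIA+IL-27 against PIA. Over the 10 Arhgap genes the median fold in that comparison was 1.13, and -0.09 with TMM scaling.

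Of a list of 11 genes of these families known mainly from blood cells, 4 were listed (Arhgap45, Arhgap9, Rab44 and Tbc1d10c), and their levels summed to 8.33 and 4.75 TPM in PIA+IL-27, 9.87 and 13.0 TPM in PIA, and 5.95 and 5.82 TPM in Control. Both PIA libraries had the highest sums. The authors list Arhgap45, Rab44 and Tbc1d10c as higher in PIA than in Control, and Arhgap9 as lower in PIA+IL-27 than in PIA. These genes thus entered the table through differences that include high PIA values, and the order of the sums is no separate result. Genes of the list of 11 that are not in the table are not seen here. Arhgap45, which carries the human minor histocompatibility antigen HA-1, had 108 and 68.0 normalized read counts in PIA+IL-27, 139 and 249 in PIA, and 86.2 and 91.4 in Control. Arhgap9, an inactivator of blood cells that acts on Rac and Cdc42, had 33.4 and 12.6 normalized read counts in PIA+IL-27, 57.7 and 56.7 in PIA, and 39.2 and 21.9 in Control. Both PIA libraries lay above every other library in each gene. The folds in PIA+IL-27 against PIA were -1.14 ± 0.944 for Arhgap45 and -1.31 ± 1.05 for Arhgap9, with edgeR adjusted p-values of 0.344 and 0.340. The fold of Arhgap45 over Control in PIA was 1.13 ± 0.943 (adjusted p of 0.617), and DESeq2 gave it an adjusted p of 0.0174 in PIA+IL-27 against PIA.

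Neutrophil and monocyte markers, 8 of 9 listed, had summed normalized read counts of 571 and 181 in PIA+IL-27, 2567 and 726 in PIA, and 1278 and 171 in Control, with Mpo and Retnlg at 0 in at least 1 library. Microglia markers, 4 of 12 listed and none at 0, summed to 1597 and 920 in PIA+IL-27, 1424 and 2873 in PIA, and 1424 and 895 in Control. The T and B cell list held 1 listed gene of 9, Cd8a, at 4.17 and 0.971 in PIA+IL-27, 0 and 1.09 in PIA, and 0 and 6.67 in Control. Their part in the levels of the 4 genes was not tested.

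Of the 6 Ras and Rap regulators, Rasa1, Rasa2, Rasgrp3 and Rapgef6 belonged to the 28 genes above, and Rasgrp1 and Rasa4 did not. Rasgrp1, a Ras activator driven by calcium and diacylglycerol in neurons and T cells, had 869 and 1744 normalized read counts in PIA+IL-27, 1005 and 401 in PIA, and 804 and 2500 in Control. Control 2 was highest and PIA 2 lowest, and the groups overlapped in every comparison. Rasgrp3, a related activator, had 162 and 125 normalized read counts in PIA+IL-27, 52.8 and 42.5 in PIA, and 44.1 and 146 in Control. Rasa1, which inactivates Ras and binds growth factor receptors, had 558 and 489 normalized read counts in PIA+IL-27, 129 and 94.9 in PIA, and 127 and 505 in Control. The PIA+IL-27 libraries of Rasa1 and Rasgrp3, and Control 2, lay above all PIA libraries and Control 1. The fold of Rasa1 in PIA+IL-27 against PIA was 2.23 ± 0.903, at an unadjusted p of 0.0137 and an edgeR adjusted p of 0.257.

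Rasa2, a relative of Rasa1, had 394 and 385 normalized read counts in PIA+IL-27, 123 and 139 in PIA, and 115 and 316 in Control. Its PIA+IL-27 libraries exceeded all others, with a fold of 0.86 ± 0.887 against Control and an edgeR adjusted p of 0.835. Rasa4, a Ras inactivator driven by calcium, had 248 and 102 normalized read counts in PIA+IL-27, 138 and 418 in PIA, and 120 and 98.1 in Control. PIA 2 was highest and PIA+IL-27 1 second, as in Dennd6b. The fold in PIA against Control was 1.35 ± 0.916, with an adjusted p of 0.617, and that in PIA+IL-27 against PIA was -0.67, 0.34 without PIA 2. Rapgef6, an activator of Rap, had 434 and 318 normalized read counts in PIA+IL-27, 105 and 140 in PIA, and 85.2 and 355 in Control, with both PIA+IL-27 libraries and Control 2 above the rest.

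**Figure D3:**
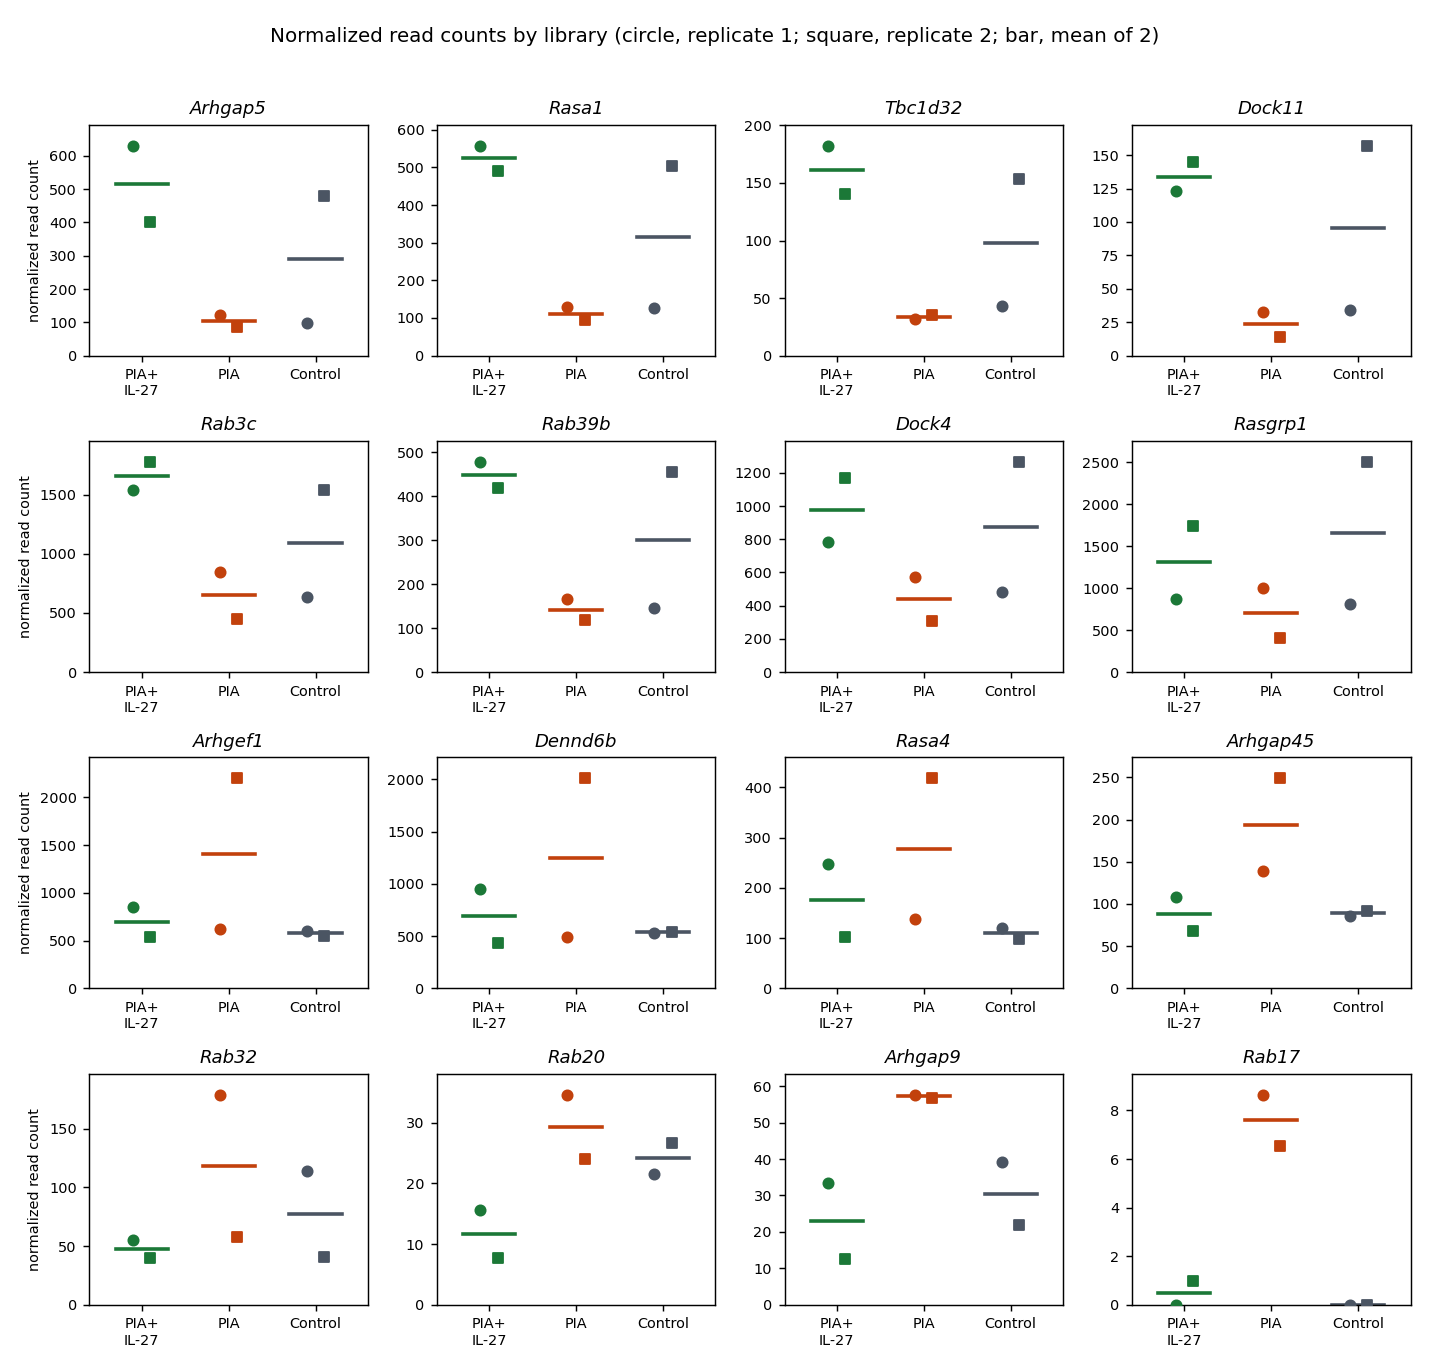
Normalized read counts of 16 genes in each library (circle, replicate 1; square, replicate 2; bar, mean of 2), with PIA+IL-27, PIA and Control from left to right and axes that start at 0. In Arhgap5, Rasa1 and Dock11 the PIA+IL-27 circle and square and the Control 2 square lie above both PIA points, and in Arhgef1, Dennd6b and Rasa4 the PIA 2 square lies above every other point.

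The direction of a gene in PIA+IL-27 against PIA followed the GC content of its transcript. The 30 genes above 0 had a GC content of 33.9 to 50.1% (median 42.2%), and the 12 genes below 0 had 47.7 to 61.2% (median 56.6%). Genes above 0 also had longer transcripts, with a median of 6390 bases, against 2974 bases for those below 0. Across the 42 genes the Spearman correlation between fold and GC content was -0.79, against -0.63 over 3121 genes tested. For PIA against Control it was 0.66, against 0.38. For PIA+IL-27 against Control it was -0.43, against -0.46. Between 2 libraries of the same group, Control 2 over Control 1, the correlation was -0.68 over the 45 genes and -0.51 over all genes with a value. These are correlations across genes, which share libraries and are not replicates, so no p is given. Once the trends with GC content and length were taken out, 21 of the 42 were above 0 in PIA+IL-27 against PIA and the median was 0. This removal also moves where 0 lies for all genes, whose median went from 1.17 to 0.09, with 55.5% above 0. TMM scaling, which has no GC term, gave 22 of the 42 above 0 and a median of 0.04. The centring near 0 therefore cannot be assigned to GC content or length. Whether base composition, depth or tissue content contributed to the folds was not tested.

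**Figure D4:**
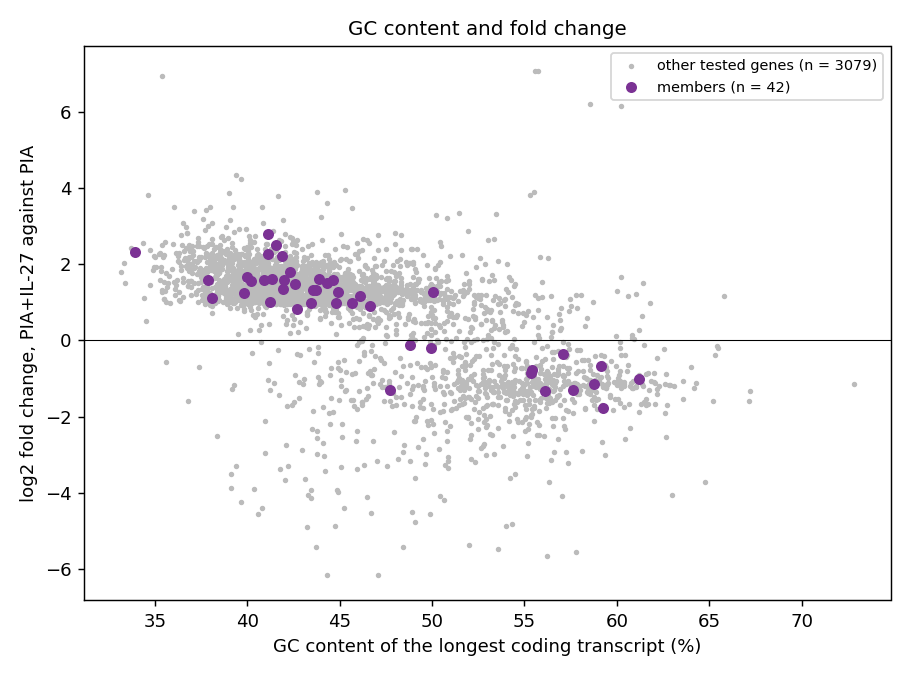
Each point is 1 gene tested in PIA+IL-27 against PIA, with the GC content of its longest coding transcript (percent) on the x axis and its log2 fold change on the y axis; purple points are the 42 genes of the set and grey points the 3079 others. Purple points with a GC content of up to 46.7% lie above 0, and those from 55.3% lie below 0.

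Small GTPases and regulators outside the name rule were counted in the same way. Of 287 genes on 5 lists of further small GTPases, their regulators and their effectors, 50 were listed and tested. None passed the adjusted threshold of edgeR in any comparison, and 12 in PIA+IL-27 against PIA (24.0%, against 18.7% of all genes tested), 1 in PIA against Control (6.28% of all) and 0 in PIA+IL-27 against Control (2.86% of all) had an unadjusted p under 0.05. In PIA+IL-27 against PIA the groups did not overlap for 39 that were higher (78.0%, against 57.1% of all listed genes) and 8 that were lower (16.0%, against 16.5%). Their median folds were 1.26 in PIA+IL-27 against PIA, -0.70 in PIA against Control and 0.70 in PIA+IL-27 against Control. Over all genes tested the medians were 1.17, -0.68 and 0.55 in the same order. Above 0 were 41, 9 and 41 of the 50, against 74.8%, 27.8% and 73.3% of all genes tested. Rac2, a small GTPase of blood cells, had 227 and 70.9 normalized read counts in PIA+IL-27, 767 and 402 in PIA, and 392 and 92.4 in Control. Pak3, a kinase that Rac and Cdc42 activate in neurons, had 2254 and 1819 in PIA+IL-27, 654 and 448 in PIA, and 452 and 1888 in Control. Rac2 was highest in PIA 1, whereas Pak3 lay with the 28 genes. Fgd4, a Cdc42 activator, Rabgap1l, a Rab inactivator, and Arap2, an Arf inactivator, were higher in PIA+IL-27 than in PIA. Their folds were 1.99 ± 0.914, 2.18 ± 0.872 and 2.14 ± 0.907, with edgeR adjusted p-values of 0.258, 0.257 and 0.257. Lower in that comparison were Rin3 at -1.09 ± 0.954, Cyth4 at -1.27 ± 0.875 and Cdc42ep5 at -0.98 ± 1.1. The edgeR adjusted p-values of these 3 were 0.348, 0.315 and 0.44. Plekhg4, an exchange factor, had an adjusted p of 0.617 for PIA against Control, and its reads stood at 231 in PIA 2 and 25.9 in PIA 1, against 14.7 and 49.5 in Control.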

How the data were processed

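The deposited table holds, per the file headers, an expected count per gene and library as estimated by the authors, of which 11.3 to 13.3% are not whole. Their normalized read count, a signal deposited by the authors, is the rounded-up count over 1 factor per library (0.917 to 1.05). TPM values, log2 fold changes and Q values (adjusted p-values) were also deposited by the authors. No aligner, counter, genome build or strand setting is given in the sources used here. The file's 42 further per-library columns were not used. Samples were grouped by the treatment in their titles.

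After rounding, the quasi-likelihood test of edgeR 4.0.16 (R 4.3.3) was run on the expected counts, all 6 libraries in 1 fit, with the authors' factors and filterByExpr (minimum count 10), which left 3216 genes; the threshold was an adjusted p of 0.05. The coefficient of variation was 0.597, and the prior degrees of freedom were infinite, so a gene's own spread had no weight. The table was selected on these libraries, so its adjusted p-values say nothing of the genome's error rate. Alternatives used limma 3.58.1 on log2(TPM + 1) or log2(TPM + 0.1), DESeq2 1.42.0, other scalings, no filter, a replicate block, subsets of libraries, and loess trends (span 0.5) on GC content and length removed. These came from GENCODE M21 for 3591 genes (96.2%) and all 45 members. The edgeR step was tested on simulated data.

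Members and gene lists were chosen with earlier results of these data known. Named per comparison were up to 6 genes in each direction, by p, whose groups do not overlap, the 2 genes with the highest TPM of each role, those known mainly from blood cells or neurons, and, of each list of other pathway genes, 1 higher and 1 lower gene. Further names were chosen after their values were seen. Results on 1 member and 1 promoter motif are not reported here.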

Additional observations from a re-analysis of the deposited data

How the results depend on the processing

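Over all genes, edgeR called 14 in PIA+IL-27 against PIA, 7 in PIA against Control and 10 in PIA+IL-27 against Control. With TMM scaling the count was 0 in PIA+IL-27 against PIA, 0 in PIA against Control and 0 in PIA+IL-27 against Control, and the median fold of the 42 members was 0.04 in PIA+IL-27 against PIA, -0.05 in PIA against Control and 0.09 in PIA+IL-27 against Control. The named genes whose fold took the other sign with TMM scaling were, in PIA+IL-27 against PIA, Arhgap29 at -0.44 and Rasgrp1 at -0.19; in PIA against Control, Arhgap20 at 0.29 and Tbc1d15 at 0.07; in PIA+IL-27 against Control, Arhgef1 at -0.61, Dennd3 at -0.56, Dennd6b at -0.52, Dock4 at -0.34 and Rasa4 at -0.26. With median-of-ratios scaling the count was 0 in PIA+IL-27 against PIA, 0 in PIA against Control and 0 in PIA+IL-27 against Control, and the median fold of the 42 members was 0.07 in PIA+IL-27 against PIA, -0.04 in PIA against Control and 0.13 in PIA+IL-27 against Control. The named genes whose fold took the other sign with median-of-ratios scaling were, in PIA+IL-27 against PIA, Arhgap29 at -0.38 and Rasgrp1 at -0.19; in PIA against Control, Arhgap20 at 0.29 and Tbc1d15 at 0.07; in PIA+IL-27 against Control, Arhgef1 at -0.59, Dennd3 at -0.53, Dennd6b at -0.49, Dock4 at -0.33 and Rasa4 at -0.22. With DESeq2 the count was 276 in PIA+IL-27 against PIA, 2 in PIA against Control and 4 in PIA+IL-27 against Control, and the median fold of the 42 members was 0.05 in PIA+IL-27 against PIA, -0.03 in PIA against Control and 0.11 in PIA+IL-27 against Control. The named genes whose fold took the other sign with DESeq2 were, in PIA+IL-27 against PIA, Arhgap29 at -0.40 and Rasgrp1 at -0.21; in PIA against Control, Arhgap20 at 0.30 and Tbc1d15 at 0.09; in PIA+IL-27 against Control, Arhgef1 at -0.60, Dennd3 at -0.55, Dennd6b at -0.50, Dock4 at -0.34 and Rasa4 at -0.24. With GC content and length trends removed the count was 0 in PIA+IL-27 against PIA, 0 in PIA against Control and 0 in PIA+IL-27 against Control, and the median fold of the 42 members was 0 in PIA+IL-27 against PIA, 0.02 in PIA against Control and 0.10 in PIA+IL-27 against Control. The named genes whose fold took the other sign with GC content and length trends removed were, in PIA+IL-27 against PIA, Arhgap20 at -0.01, Arhgap29 at -0.63, Arhgef1 at 0.35, Rab3c at -0.12, Rasa4 at 0.45, Tbc1d10c at 0.61 and Tbc1d15 at -0.25; in PIA against Control, Arhgap20 at 0.38, Arhgef16 at -0.26, Rab11fip2 at 0.06, Rab3c at 0.01, Rapgef6 at 0.12 and Tbc1d15 at 0.20; in PIA+IL-27 against Control, Arhgap45 at 0.24, Dock4 at -0.27, Rab3c at -0.11 and Tbc1d15 at -0.05. DESeq2 called 3 of 42 members in PIA+IL-27 against PIA (7.14%, against 8.58% of 3216 genes; Arhgap45, Arhgef16 and Rab20, all lower), with scaling over the listed genes. With only the libraries of the comparison, edgeR called 449 in PIA+IL-27 against PIA, 9 in PIA against Control and 1 in PIA+IL-27 against Control, and 10 of 42 members in PIA+IL-27 against PIA (23.8%, against 14.9% of 3006 genes), all higher. Leaving out the third group takes its spread out of the fit. Limma called 10 in PIA+IL-27 against PIA, 6 in PIA against Control and 2 in PIA+IL-27 against Control on log2(TPM + 1), and 14 in PIA+IL-27 against PIA, 12 in PIA against Control and 5 in PIA+IL-27 against Control on log2(TPM + 0.1). Arhgap45 in PIA+IL-27 against Control was at 0.03 and 0.04 on these scales.

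With each library left out in turn, a lone library is assumed to vary like the other groups. EdgeR then called 0 to 7 genes in PIA+IL-27 against PIA, 0 to 4 genes in PIA against Control and 0 to 7 genes in PIA+IL-27 against Control, and 0 members in each comparison. The median fold of the members ran from 0.94 to 1.47 in PIA+IL-27 against PIA, -1.26 to 0.44 in PIA against Control and 0.06 to 1.43 in PIA+IL-27 against Control. Named genes whose fold changed sign in this way are given by lowest and highest value. For PIA+IL-27 against PIA, folds spanned -0.23 to 1.42 for Arhgap29, -1.66 to 0.17 for Arhgef1, -1.54 to 0.49 for Dennd6b and -1.45 to 0.34 for Rasa4. For PIA against Control, folds spanned -0.88 to 0.48 for Arhgap20, -0.14 to 0.86 for Arhgap29, -0.14 to 1.90 for Dennd6b, -1.39 to 0.19 for Rab11fip2, -1.28 to 0.03 for Rab3c, -1.58 to 0.50 for Rab9b, -1.54 to 0.52 for Rapgef6, -1.61 to 0.11 for Rasgrp3 and -0.99 to 0.18 for Tbc1d15. For PIA+IL-27 against Control, folds spanned -0.39 to 0.29 for Arhgap45, -1.27 to 0.13 for Arhgap9, -0.10 to 0.57 for Arhgef1, -0.10 to 0.68 for Dennd3, -0.32 to 0.82 for Dennd6b, -0.38 to 1.02 for Dock4, -0.10 to 1.18 for Rasa4, -0.94 to 0.70 for Rasgrp1 and -0.02 to 1.70 for Rasgrp3. Without a change of sign, the fold of named genes moved by over 1.5 times on the log2 scale in 6 of 26 for PIA+IL-27 against PIA, 13 of 23 for PIA against Control and 12 of 23 for PIA+IL-27 against Control. The cause of these changes was not tested. Of 962 fold values of 29 named genes under all alternatives, 877 kept their sign and side of the threshold, 11 passed it with the same sign and 74 took the other sign.

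Deviations of same-numbered libraries correlated at -0.26 between PIA+IL-27 and PIA, 0.06 between PIA+IL-27 and Control and 0.147 between PIA and Control. With 2 libraries per group, these values cannot tell whether same-numbered libraries were handled together. With the replicate number as a block edgeR called 4 in PIA+IL-27 against PIA, 3 in PIA against Control and 3 in PIA+IL-27 against Control, and 0 members, and Arhgap45 in PIA+IL-27 against Control was at 0. With the numbers of PIA+IL-27 exchanged, chosen after seeing the data, the block gave 1 gene and 0 members in PIA+IL-27 against PIA. With no filter on low counts, counts stayed within 1.5 times those of the filtered fit.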
